A study of Mus musculus with 12 samples.

Results

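The state dependence of the EPOP mutant effect is the difference between 2 comparisons: mutant against wild-type (WT) EPOP in epiblast-like cells (EpiLCs), minus mutant against WT EPOP in mouse embryonic stem cells (mESCs). All 12 of the 12 RNA-seq libraries in the series entered it, and 13879 of 19630 named genes had enough reads to be tested. A gene belongs here when this difference passed an edgeR quasi-likelihood test for an interaction at a Benjamini-Hochberg adjusted p under 0.05, adjusted over all genes tested. In total 1351 genes did, which is 9.73% of those tested. A positive difference means that the mutant effect was further upwards in EpiLCs than in mESCs, and a negative one that it was further downwards.

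The 4 groups of 3 libraries each were mutant EpiLCs, WT EpiLCs, mutant mESCs and WT mESCs. All come from the E14 mESC line, and all re-express EPOP, either a mutant form or the WT form. Cells without re-expressed EPOP were not analysed here, so both sides of every comparison are re-expressing cells. The mESCs grew on gelatin in 2i/LIF medium, with 1 µM of the MEK inhibitor PD0325901, 3 µM of the GSK3 inhibitor CHIR99021 and LIF. EpiLCs were derived from mESCs on fibronectin, with 20 ng/ml activin A and 12 ng/ml bFGF and without the 2 inhibitors, so state and medium cannot be told apart. The count table names the columns that are not WT by a code absent from the labels. Since the labels hold no genotype other than WT and mutant, those columns were read as mutant, and every direction below rests on that. What the mutation changes in the protein, the number of clones behind each genotype and whether replicates were separate cultures are likewise not stated in the labels. The p-values therefore measure library-to-library spread, part or all of which may be technical.

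EPOP is an accessory protein of Polycomb repressive complex 2 (PRC2), the enzyme complex that methylates histone H3 at lysine 27 over silent developmental genes. It is abundant in mESCs, where it is known to limit the binding of PRC2 to chromatin. Naive mESCs in 2i/LIF resemble the epiblast before implantation, and EpiLCs resemble the formative epiblast after it, which has shut down naive transcription factors and become open to lineage signals.

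Libraries held 7714164 to 10652151 counts in named genes. Naive markers (8 genes) summed to 150 to 160 CPM (read counts scaled to the effective library size) in mutant EpiLCs, against 332 to 357 CPM in WT EpiLCs, and to 4057 to 4112 CPM in mutant mESCs, against 4016 to 4197 CPM in WT mESCs. EpiLC markers (6 genes) summed to 948 to 950.0 CPM in mutant EpiLCs, against 702 to 703 CPM in WT EpiLCs, and to 108 to 117 CPM in mutant mESCs, against 111 to 121 CPM in WT mESCs. The labelled states were therefore visible in every library, and the genotypes differed in both marker sums in EpiLCs, where their ranges did not overlap. These sums are over bulk RNA, in which fewer cells of a type and less RNA per cell cannot be told apart. Feeder fibroblast markers (8 genes) summed to 8.03 to 9.62 CPM in mutant EpiLCs, against 4.82 to 6.69 CPM in WT EpiLCs, and to 3.23 to 6.04 CPM in mutant mESCs, against 7.84 to 8.55 CPM in WT mESCs, with Col3a1 at 0 in all 4 groups, and their part in the results was not tested. Epop mRNA, listed as E130012A19Rik (chr11:97627389-97629702, GRCm38), stood at 207, 216 and 197 CPM in mutant EpiLCs, against 209.8, 205 and 212 CPM in WT EpiLCs. In mESCs it stood at 462, 474 and 471 CPM in mutant mESCs, against 463, 471 and 485 CPM in WT mESCs. The ranges of the 2 genotypes overlapped in both states, and the difference of effects was -0.0028 ± 0.059 log2 (± SE here and below; edgeR adjusted p = 0.990).

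**Figure D1:**
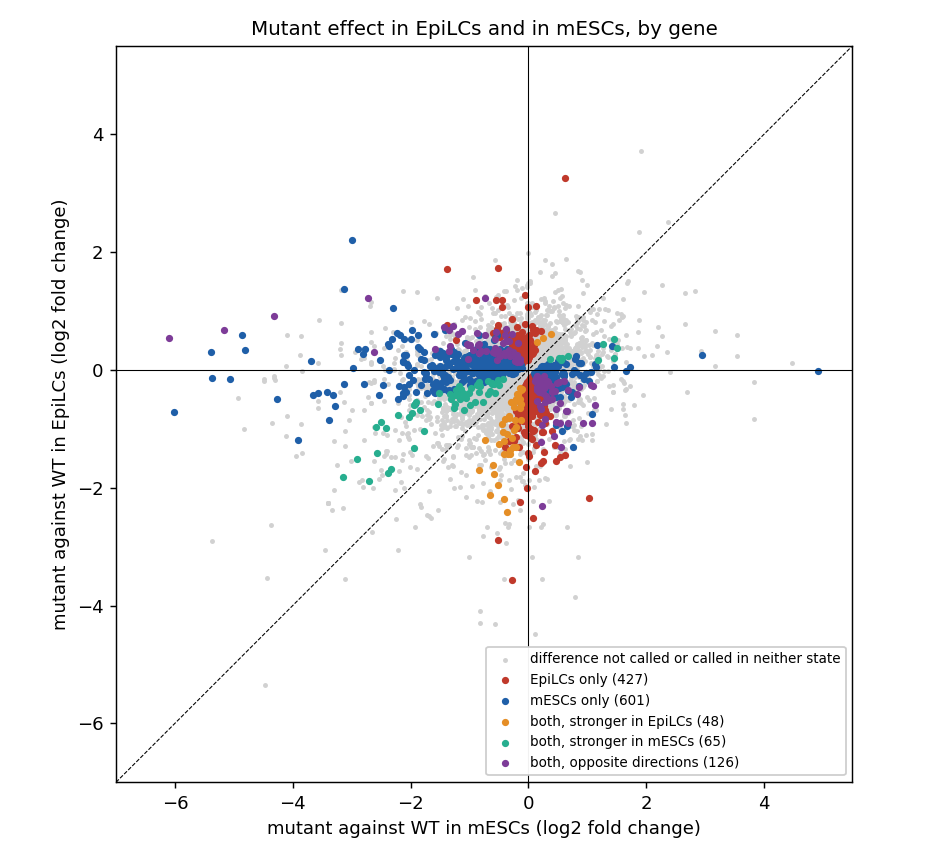
Each point is 1 of the genes tested, with the fitted log2 fold change of mutant against WT in mESCs on the horizontal axis and in EpiLCs on the vertical axis; 1 gene lies outside the axes. Coloured points are genes with a called difference, by the state or states in which the mutant effect itself was called, and grey points are the rest. The dashed line marks equal effects, and most coloured points lie along one axis or the other. Fitted values of genes without counts in a group depend on the prior count.

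The mutant effect was called for 2198 genes in EpiLCs (15.8% of those tested) and for 2574 genes in mESCs (18.5%). A gene called in one state and not in the other need not differ between them. Of 1388 genes called in EpiLCs and not in mESCs, 427 (30.8%) had a called difference. Of 1764 genes called in mESCs and not in EpiLCs, 601 (34.1%) did. Of 684 genes called in both states in the same direction, 113 (16.5%) differed in size. All 126 genes called in opposite directions had a called difference, which called effects of opposite sign make all but certain, so this share is not comparable with the others. A further 84 genes had a called difference with no called effect in either state. The 12 tested members of the clustered protocadherin list, cell adhesion genes that are strung together in arrays, show the point. Of these, 8 rose in mutant EpiLCs. In mESCs no member was called by edgeR, DESeq2 or limma-voom, and 0 had an unadjusted p under 0.05. The difference of effects was likewise called for no member by any of these tools, although 8 had a positive one at an unadjusted p under 0.05. It was called for 2 members without WT EpiLC replicate 3 and for 1 with upper-quartile scaling. Their variable exons are spliced to shared constant exons, and the values of array members are close to one another, so they are not independent counts.

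Among the 1351 genes, 650 had a positive difference (4.68% of genes tested) and 701 a negative one (5.05%). With upper-quartile scaling the split was 772 positive and 557 negative, with the median of all genes at 0.034 log2, against 0.00279 log2 with the TMM scaling used throughout. Differences of at least 2-fold were mostly positive, with 239 positive and 100 negative. Of these genes, 173 were in the class that fell in mESCs only. That class had a median of 6.29 CPM in mutant mESCs, against 24.5 CPM for all genes tested, so many of the large differences rest on low levels.

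The commonest response was a fall in one state only. In 375 genes the mutant effect was called in mESCs only and was a fall, and in 306 genes it was called in EpiLCs only and was a fall. Rises in one state only were called for 226 genes in mESCs and for 121 genes in EpiLCs. Here and below, a gene said to move in one state only was called in that state and not in the other. Since a missed call does not show that a gene stayed level, the 95% interval of the effect in the other state was used as a bound. It lay within 1.5-fold either way for 286 of the 306 genes that fell in EpiLCs, 96 of the 121 that rose in EpiLCs, 256 of the 375 that fell in mESCs and 200 of the 226 that rose in mESCs.

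Levels differed between these classes. The genes that fell in mESCs only had a median of 18.3 CPM in mutant EpiLCs, against 18.8 CPM in WT EpiLCs, and of 6.29 CPM in mutant mESCs, against 13.1 CPM in WT mESCs. For the genes that fell in EpiLCs only the medians were 57.1 CPM in mutant EpiLCs, against 71.9 CPM in WT EpiLCs, and 107 CPM in mutant mESCs, against 104 CPM in WT mESCs. In mESCs the median over all genes tested was 24.5 CPM in mutant and 24.8 CPM in WT cells, so the first class had a lower median there and the second a higher one. The median size of the difference was 0.93 log2 in the first class and 0.38 log2 in the second. Genes that rose in EpiLCs only spanned a median of 15.99 kb in the annotation. The median was 22.7 kb for all genes tested and 33.8 kb for all genes with a called difference. The other one-state classes spanned 35.2 kb (fell in EpiLCs only), 39.1 kb (fell in mESCs only) and 35.0 kb (rose in mESCs only).

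**Figure D2:**
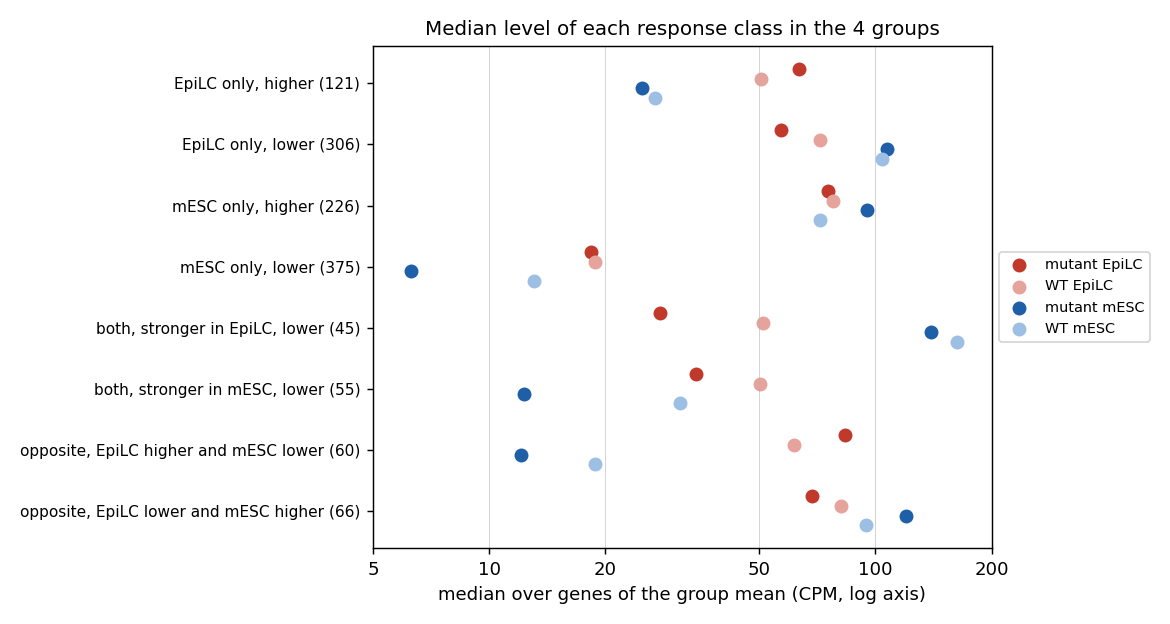
Each row is a class of genes with a called difference (number of genes in brackets), and each point is the median over its genes of the group mean, in CPM on a log axis, for mutant EpiLCs, WT EpiLCs, mutant mESCs and WT mESCs. Genes that fell in mESCs only have the lowest median, 6.29 CPM in mutant mESCs. The 2 classes of 10 genes or fewer that rose in both states, and the 84 genes called in neither, are not drawn.

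Naive pluripotency genes fell in mutant EpiLCs and changed little on balance in mESCs. Of 30 tested members, 20 had a negative difference, with a median of -0.71 log2, against 0.00 for all genes tested. In EpiLCs 21 of the 30 fell and 1 rose (8.82% and 7.02% of all genes tested), and in mESCs 6 fell and 7 rose (10.1% and 8.4% of all genes tested). These shares of all genes tested are also the background for the counts per state of the lists below. For called differences the background is 4.68% positive and 5.05% negative, or 9.73% in both directions. Esrrb, an orphan nuclear receptor of the naive network (chr12:86361117-86521628, GRCm38), stood at 25.4, 22.03 and 19.8 CPM in mutant EpiLCs, against 89.96, 93.9 and 88.1 CPM in WT EpiLCs. In mESCs it stood at 906, 950.4 and 922 CPM in mutant mESCs, against 989.6, 931 and 903 CPM in WT mESCs. The genotypes were separate in EpiLCs and overlapped in mESCs, and the difference was -1.98 ± 0.078 log2 (SE; edgeR adjusted p = 3.16e-48).

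Tfcp2l1, a transcription factor that sustains self-renewal downstream of LIF and STAT3, stood at 18.2, 16.6 and 17.9 CPM in mutant EpiLCs, against 37.2, 40.7 and 34.3 CPM in WT EpiLCs, and at 991, 987 and 978 CPM in mutant mESCs, against 1061, 1059 and 959.5 CPM in WT mESCs. Its difference was -1.03 ± 0.088 log2 (edgeR adjusted p = 1.37e-19), and that of the Kruppel-like factor Klf4 was -0.84 ± 0.13 log2 (edgeR adjusted p = 2.81e-07). Of the 20 naive members with a called difference, 11 fell in EpiLCs only, 4 fell in both states and by more in EpiLCs, and 4 fell in EpiLCs and rose in mESCs. The remaining member, Pdgfa, a growth factor gene, was called in mESCs only, where it rose. Those that moved in opposite directions were Nr0b1, Manba, Lifr, which encodes the LIF receptor, and Stat3, its signal transducer. Stat3 had an effect of -0.53 log2 in EpiLCs and 0.15 log2 in mESCs. No member had a positive difference by edgeR, DESeq2 or limma-voom, and 0 had one at an unadjusted p under 0.05. The 8 naive markers together summed to less in WT EpiLCs than Esrrb alone in mESCs.

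Genes that mark pluripotency in both states also leaned negative. Of 17 tested members, 10 had a negative difference, with a median of -0.24 log2. No positive one was called by edgeR, DESeq2 or limma-voom, with 1 at an unadjusted p under 0.05. Of the 17, 9 rose and 1 fell in mutant mESCs, and 2 rose and 5 fell in mutant EpiLCs. Lin28a, an RNA-binding protein that blocks let-7 maturation (chr4:134003330-134018841, GRCm38), stood at 496, 508 and 485 CPM in mutant EpiLCs, against 396, 399 and 359.7 CPM in WT EpiLCs, and at 154, 161 and 154 CPM in mutant mESCs, against 60.6, 51.3 and 54.6 CPM in WT mESCs. It rose in both states, and by more in mESCs, with a difference of -1.13 ± 0.07 log2 (edgeR adjusted p = 2.28e-29). On the CPM scale the means differed by 111 CPM in EpiLCs and by 101 CPM in mESCs. Utf1, a chromatin-associated pluripotency factor, rose in mESCs only, where it stood at 185, 185 and 191 CPM in mutant mESCs, against 108, 113 and 106 CPM in WT mESCs. In EpiLCs Utf1 stood at 417, 417 and 420.2 CPM in mutant EpiLCs, against 399, 417 and 433 CPM in WT EpiLCs, with overlapping groups. Dnmt3l, a cofactor of de novo DNA methylation, moved in opposite directions, with 189, 197 and 188 CPM in mutant EpiLCs, against 226, 229 and 236 CPM in WT EpiLCs, and 20.02, 22.8 and 24.4 CPM in mutant mESCs, against 10.9, 9.91 and 10.7 CPM in WT mESCs. Its exons overlap those of Aire, and whether counting told the strands apart is not stated in the labels. For Pou5f1 and Nanog, core factors of both states, the difference of effects was not called. It was 0.10 ± 0.048 log2 for Pou5f1 and -0.052 ± 0.055 log2 for Nanog (SE; edgeR adjusted p = 0.176 and 0.659), although Nanog fell in each state on its own.

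Formative and primed epiblast genes leaned the other way. Of 29 tested members, 12 had a positive difference and 4 a negative one, with a median of 0.31 log2. In mutant EpiLCs 12 rose and 7 fell, and in mutant mESCs 5 rose and 9 fell. Pou3f1, a POU factor of the formative epiblast and of neural tissue (chr4:124656807-124660655, GRCm38), stood at 216, 212 and 205 CPM in mutant EpiLCs, against 162, 151 and 151 CPM in WT EpiLCs. In mESCs it stood at 2.34, 5.31 and 4.68 CPM in mutant mESCs, against 7.09, 9.32 and 9.25 CPM in WT mESCs. It rose in EpiLCs and fell in mESCs, with no overlap of the groups in either state, and the difference was 1.49 ± 0.18 log2 (SE; edgeR adjusted p = 2.19e-11). Dnmt3b, a de novo DNA methyltransferase, rose in EpiLCs only, where it stood at 416, 397 and 413 CPM in mutant EpiLCs, against 310.5, 307 and 303 CPM in WT EpiLCs. In mESCs Dnmt3b stood at 99.5, 103 and 101 CPM in mutant mESCs, against 91.99, 93.6 and 98.3 CPM in WT mESCs, and the difference was 0.32 ± 0.068 log2 (edgeR adjusted p = 2.91e-04). Cdh2, the adhesion protein N-cadherin, stood at 56.5, 58.3 and 54.7 CPM in mutant EpiLCs, against 35.7, 31.2 and 33.4 CPM in WT EpiLCs, and at 3.34, 4.16 and 1.89 CPM in mutant mESCs, against 4.54, 4.57 and 4.50 CPM in WT mESCs. Its difference was 1.28 ± 0.24 log2 (edgeR adjusted p = 2.57e-05), with the rise called in EpiLCs only. Otx2, an epiblast and forebrain homeobox factor, did not follow the list, with a difference of 0.14 ± 0.34 log2 (edgeR adjusted p = 0.871) and a fall in mutant EpiLCs. The 4 members with a negative difference were Spry4, Zic2, Etv4 and Dusp6, of which Spry4, Etv4 and Dusp6 are known targets or feedback inhibitors of FGF and ERK signalling.

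**Figure D3:**
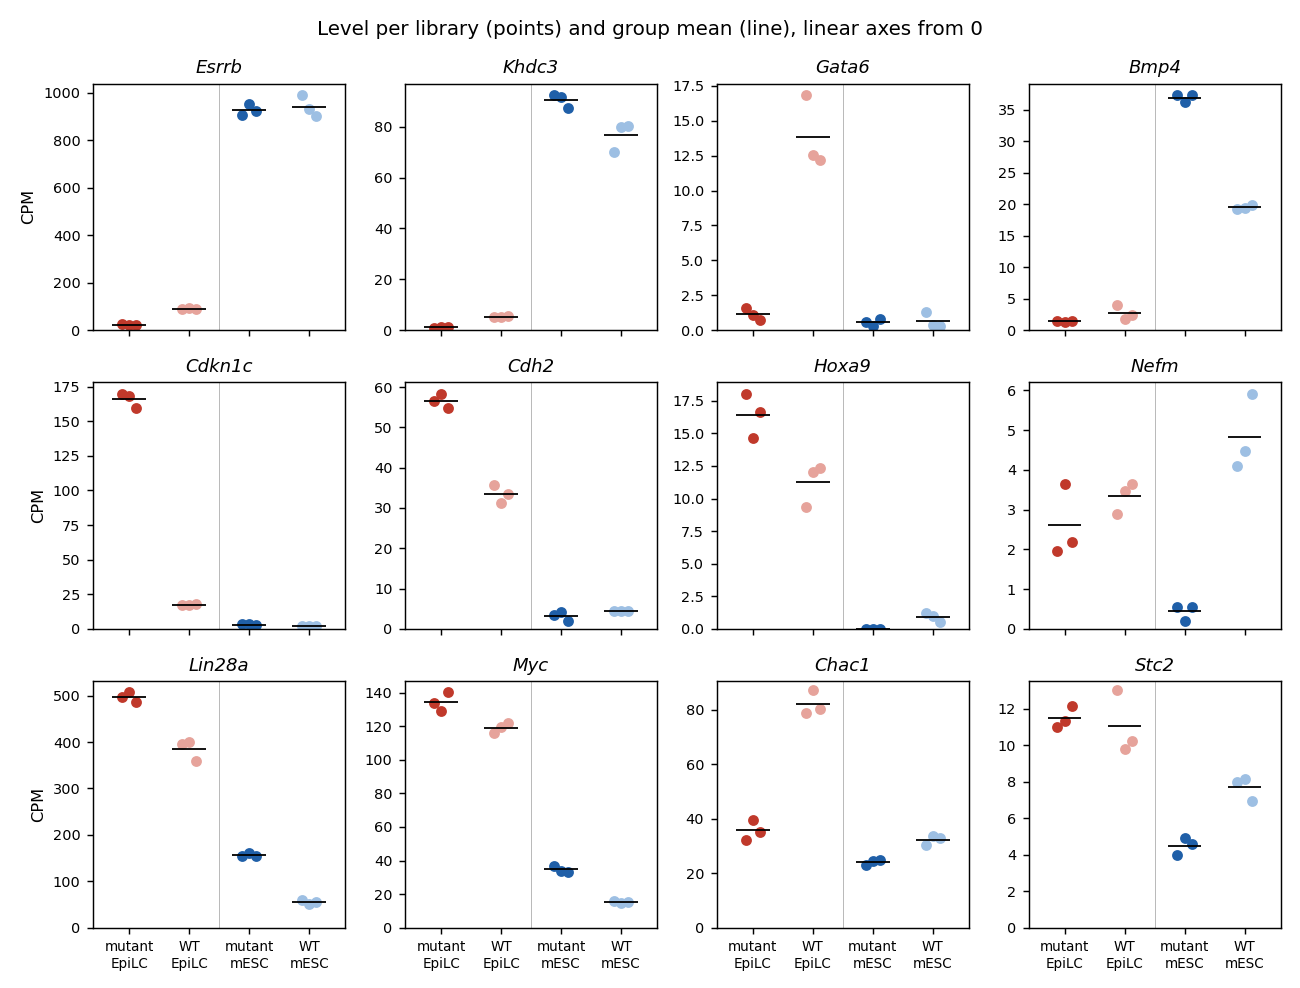
Each panel is 1 gene, each point 1 library and each black line a group mean, in CPM on a linear axis that starts at 0, with mutant EpiLCs, WT EpiLCs, mutant mESCs and WT mESCs left to right. Esrrb, Gata6 and Cdkn1c separate the genotypes in EpiLCs, Lin28a and Myc separate them more widely in mESCs as a ratio, and Khdc3, Bmp4 and Hoxa9 move in opposite directions in the 2 states.

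ERK targets and feedback genes (24 tested) had 8 negative differences and 1 positive one, with a median of -0.07 log2. Without WT mESC replicate 2 the negative count was 5. Spry4, a feedback inhibitor of receptor tyrosine kinase signalling, stood at 64.1, 55.9 and 68.2 CPM in mutant EpiLCs, against 76.5, 76.9 and 70.6 CPM in WT EpiLCs, and at 15.7, 21.7 and 22.9 CPM in mutant mESCs, against 6.98, 10.9 and 10.9 CPM in WT mESCs. It fell in mutant EpiLCs and rose in mutant mESCs, and its difference was -1.32 ± 0.16 log2 (SE; edgeR adjusted p = 1.90e-10). Myc, a growth-promoting transcription factor, stood at 134, 129 and 140.4 CPM in mutant EpiLCs, against 116, 119 and 122 CPM in WT EpiLCs, and at 37.05, 34.05 and 32.98 CPM in mutant mESCs, against 16.1, 14.5 and 15.4 CPM in WT mESCs, with a difference of -1.01 ± 0.11 log2 (edgeR adjusted p = 6.18e-13). It rose in both states, and on the log scale by more in mESCs. Ccnd1, cyclin D1, was the member with a positive difference, 0.59 ± 0.068 log2 (edgeR adjusted p = 4.43e-12), and it rose in EpiLCs only; its exons overlap those of LTO1. The MEK inhibitor, which blocks this pathway, was in the mESC medium of both genotypes.

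WNT targets and TCF factors (19 tested) had 5 negative differences and 1 positive one, or 2 positive without WT EpiLC replicate 1 or mutant mESC replicate 1, with a median of -0.03 log2. LIF and STAT3 response genes (15 tested) had 7 negative differences, with a median of -0.26 log2, and no positive one by edgeR, DESeq2 or limma-voom, with 0 at an unadjusted p under 0.05. Among nodal and activin pathway genes (20 tested) 5 differences were negative and 3 positive, together 40% of members, against 9.73% of all genes tested. The negative count was 3 without mutant EpiLC replicate 2. Bmp4, a secreted growth factor, stood at 1.41, 1.34 and 1.49 CPM in mutant EpiLCs, against 3.90, 1.74 and 2.35 CPM in WT EpiLCs, and at 37.3, 36.1 and 37.3 CPM in mutant mESCs, against 19.2, 19.4 and 19.9 CPM in WT mESCs. It fell in mutant EpiLCs, where the ranges did not overlap, and rose in mutant mESCs, with a difference of -1.82 ± 0.34 log2 (edgeR adjusted p = 1.07e-05); its exons overlap those of Gm15217. Inhbb, an activin and inhibin subunit, was at 0.375, 0.122 and 0 CPM in mutant EpiLCs, against 1.11, 1.12 and 1.06 CPM in WT EpiLCs, and at 51.8, 55.5 and 62.5 CPM in mutant mESCs, against 53.3, 56.2 and 50.2 CPM in WT mESCs. Its difference was -2.60 ± 0.72 log2 (edgeR adjusted p = 6.52e-04), and -4.02 log2 without mutant EpiLC replicate 1, with few reads in mutant EpiLCs in either fit. Hedgehog pathway genes (11 tested) had 3 positive differences, in the pathway inhibitor Hhip, the coreceptor Gas1 and the transducer Smo. No negative one was called by edgeR, DESeq2 or limma-voom, with 1 at an unadjusted p under 0.05, but 2 were without WT mESC replicate 2 and 1 was without mutant EpiLC replicate 1 or WT mESC replicate 3. Smo stood at 238, 222 and 235 CPM in mutant EpiLCs, against 211, 209.9 and 200.01 CPM in WT EpiLCs, and at 67.1, 60.9 and 66.6 CPM in mutant mESCs, against 94.5, 91.6 and 94.04 CPM in WT mESCs, with a difference of 0.69 ± 0.076 log2 (edgeR adjusted p = 5.46e-13). Hhip lost its call without mutant EpiLC replicate 1, at 0.93 log2.

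Genes of later lineages, many of them Polycomb targets, had more positive than negative differences in the Hox and neural lists. Of 28 tested Hox genes, the body axis homeobox factors, 6 had a positive difference, with a median of 0.96 log2, and no negative one was called by edgeR, DESeq2 or limma-voom, with 0 at an unadjusted p under 0.05. In mutant mESCs 10 Hox genes fell and 1 rose (10.1% and 8.4% of all genes tested). In mutant EpiLCs 11 rose and 4 fell (7.02% and 8.82% of all genes tested). Hoxa9 (chr6:52223100-52231089, GRCm38) stood at 18.003, 14.6 and 16.6 CPM in mutant EpiLCs, against 9.36, 12.1 and 12.3 CPM in WT EpiLCs, and at no count in mutant mESCs, against 1.22, 0.971 and 0.514 CPM in WT mESCs. With the floor of 3 counts over the mutant mESC group in place of 0, its difference was 3.64 log2, a value that was not itself tested. The call came from the fit without that floor (edgeR adjusted p = 1.00e-06). Its exons overlap those of Mir196b. Hoxa3 stood at 54.7, 60.9 and 64.3 CPM in mutant EpiLCs, against 47.04, 50.6 and 41.7 CPM in WT EpiLCs, and at 0.111, 0.729 and 0.557 CPM in mutant mESCs, against 1.66, 1.55 and 1.03 CPM in WT mESCs, with a difference of 1.94 ± 0.49 log2 (edgeR adjusted p = 9.51e-04); its exons overlap those of Hoxaas3. Both had non-overlapping genotypes in mESCs, at levels near 1 CPM.

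Neural genes (23 tested) had 10 positive differences and 2 negative ones, with a median of 0.84 log2. The negative count was 1 without mutant EpiLC replicate 1 or 3 or WT EpiLC replicate 1. In mutant mESCs 11 fell and 1 rose, and in mutant EpiLCs 3 fell and 7 rose. Sox1, a transcription factor of the early neural plate (chr8:12395295-12400126, GRCm38), stood at 243, 211 and 237 CPM in mutant EpiLCs, against 171, 172 and 179 CPM in WT EpiLCs. In mESCs it stood at 7.23, 7.39 and 8.47 CPM in mutant mESCs, against 20.4, 21.95 and 14.8 CPM in WT mESCs. Its difference was 1.73 ± 0.14 log2 (SE; edgeR adjusted p = 3.75e-21), a rise in one state and a fall in the other. Nefm, a neurofilament subunit, was at 1.97, 3.65 and 2.18 CPM in mutant EpiLCs, against 2.90, 3.47 and 3.64 CPM in WT EpiLCs, and at 0.556, 0.208 and 0.557 CPM in mutant mESCs, against 4.10, 4.47 and 5.91 CPM in WT mESCs. It fell in mESCs only, with a difference of 3.04 ± 0.62 log2 (edgeR adjusted p = 1.87e-05), and its exons overlap those of Nefl in the annotation. Over all 74 tested Polycomb target transcription factors the difference was less one-sided, with 8 positive and 6 negative calls. These are together 18.9% of members, against 9.73% of all genes tested. The positive count was 5 without WT EpiLC replicate 1. The median of this list was 0.12 log2, and in each state more members fell than rose, 16 against 5 in EpiLCs and 27 against 6 in mESCs.

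Of 25 tested endoderm genes, 3 had a positive and 4 a negative difference, together 28% of members, against 9.73% of all genes tested. The negative count was 2 without mutant EpiLC replicate 2, WT EpiLC replicate 1 or WT mESC replicate 2. Gata6, a transcription factor of the primitive endoderm, stood at 1.59, 1.10 and 0.688 CPM in mutant EpiLCs, against 16.8, 12.6 and 12.2 CPM in WT EpiLCs, and at 0.556, 0.312 and 0.780 CPM in mutant mESCs, against 1.33, 0.389 and 0.257 CPM in WT mESCs. It fell in EpiLCs only, with a difference of -3.29 ± 0.68 log2 (edgeR adjusted p = 2.93e-04), or -4.27 log2 without WT mESC replicate 1. Its exons overlap those of 1010001N08Rik. Primitive endoderm markers as a group (7 genes) summed to 18.3 to 22.7 CPM in mutant EpiLCs, against 45.3 to 48.4 CPM in WT EpiLCs, and to 9.01 to 10.4 CPM in mutant mESCs, against 12.0 to 15.7 CPM in WT mESCs, and the part of such cells in the fall of Gata6 was not tested. Primitive streak and mesoderm genes (24 tested) had 5 negative differences and 1 positive one, Fgf8, a secreted growth factor of the streak. Fgf8 stood at 10.2, 7.91 and 8.14 CPM in mutant EpiLCs, against 2.56, 2.25 and 3.29 CPM in WT EpiLCs, and at 0.222, 0.625 and 0.223 CPM in mutant mESCs, against 1.55, 0.389 and 1.03 CPM in WT mESCs. It rose in EpiLCs only, with a difference of 3.09 ± 0.69 log2 (edgeR adjusted p = 1.95e-04), or 3.75 log2 without mutant mESC replicate 2. Trophoblast genes (18 tested) had 3 positive and 4 negative differences, together 38.9% of members. The positive count was 1 without mutant EpiLC replicate 1, WT EpiLC replicate 3, mutant mESC replicate 2 or WT mESC replicate 1, and 1 with limma-voom. Tfap2c, a transcription factor of trophoblast and germ cells, stood at 3.19, 3.53 and 2.29 CPM in mutant EpiLCs, against 7.80, 11.4 and 10.5 CPM in WT EpiLCs, and at 62.4, 62.7 and 69.6 CPM in mutant mESCs, against 65.8, 55.5 and 58.97 CPM in WT mESCs, with a difference of -1.83 ± 0.22 log2 (edgeR adjusted p = 1.09e-12).

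**Figure D4:**
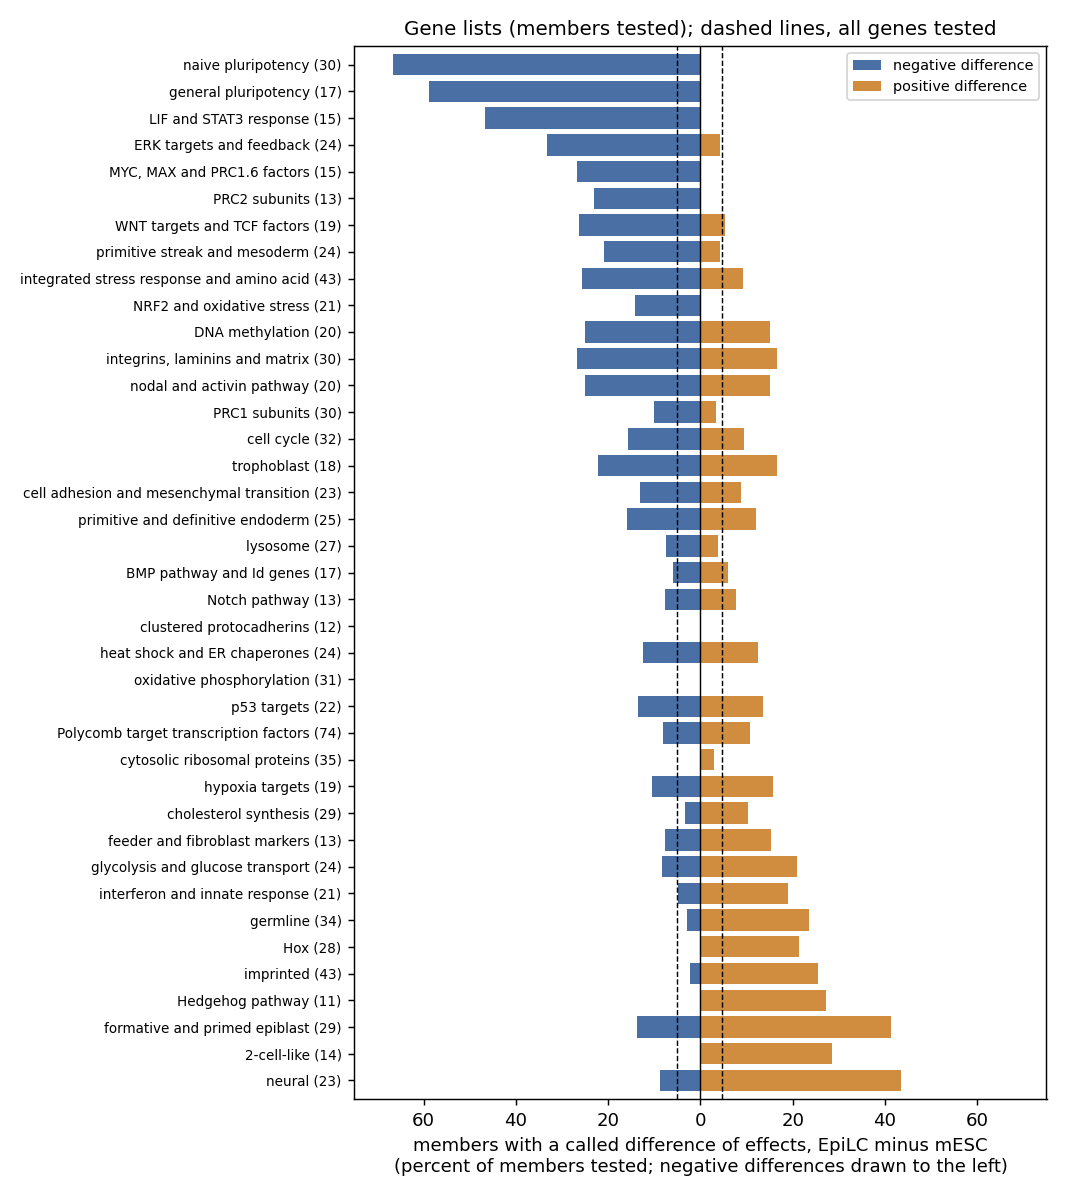
Each row is a gene list with its number of tested members, and bars give the percent of those members with a called difference, negative to the left and positive to the right. Dashed lines mark the shares for all genes tested, 5.05% negative and 4.68% positive. Naive pluripotency has the longest bar to the left, 20 of 30 members, and neural genes the longest to the right, 10 of 23.

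Germline and 2-cell-like genes had calls mostly downwards in both states, and their differences were mostly positive. Of 34 tested germline genes, 15 fell in EpiLCs and 18 in mESCs, and 8 had a positive difference, 5 without WT EpiLC replicate 3, and 1 a negative one, or 2 without mutant EpiLC replicate 3, mutant mESC replicate 1 or WT mESC replicate 3. Tdrkh, a piRNA pathway protein, was called in mESCs only, with 9.75, 8.89 and 9.63 CPM in mutant EpiLCs, against 8.03, 9.09 and 7.63 CPM in WT EpiLCs, and 1.56, 1.35 and 1.11 CPM in mutant mESCs, against 3.21, 3.50 and 2.70 CPM in WT mESCs; its exons overlap those of Oaz3. The 2-cell-like list holds genes of a rare totipotent-like state, and of its 14 tested members 10 fell in EpiLCs and 13 in mESCs, and 4 had a positive difference. That count was 2 without mutant mESC replicate 3, without mutant EpiLC replicate 2 or without WT EpiLC replicate 1. Zscan4a stood at 5.63, 5.23 and 5.16 CPM in mutant EpiLCs, against 14.6, 16.04 and 15.4 CPM in WT EpiLCs, and at 2.34, 2.29 and 2.23 CPM in mutant mESCs, against 12.6, 19.6 and 19.5 CPM in WT mESCs, with a difference of 1.39 ± 0.30 log2 (edgeR adjusted p = 2.17e-04). It is annotated as an unprocessed pseudogene. The protein-coding member Zscan4e also fell in both states, with a difference of 1.33 ± 0.34 log2 (edgeR adjusted p = 0.00191). How reads divide among the near-identical Zscan4 and Usp17l copies is not certain. The 7 markers of the 2-cell-like state summed to 21.8 to 23.5 CPM in mutant EpiLCs, against 75.6 to 94.3 CPM in WT EpiLCs, and to 6.46 to 10.2 CPM in mutant mESCs, against 48.4 to 55.3 CPM in WT mESCs.

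Imprinted genes (43 tested) had 11 positive differences and 1 negative one, with a median of 0.13 log2. The negative call was lost without mutant EpiLC replicate 3, WT EpiLC replicate 1 or 2, mutant mESC replicate 2 or WT mESC replicate 2, and 2 were made without WT EpiLC replicate 3. Cdkn1c, a maternally expressed inhibitor of cyclin-dependent kinases (chr7:143458339-143461050, GRCm38), stood at 169.5, 168 and 159.6 CPM in mutant EpiLCs, against 16.9, 17.3 and 17.97 CPM in WT EpiLCs. In mESCs it stood at 3.23, 3.23 and 2.56 CPM in mutant mESCs, against 1.77, 1.94 and 2.18 CPM in WT mESCs. The genotypes did not overlap in either state, but the rise was called in EpiLCs only, and the difference was 2.63 ± 0.27 log2 (SE; edgeR adjusted p = 8.90e-13). Ndn, a paternally expressed gene, went the other way round and fell in mESCs only, with 17.3, 19.6 and 14.4 CPM in mutant EpiLCs, against 20.2, 18.7 and 20.1 CPM in WT EpiLCs, and 6.01, 6.04 and 5.12 CPM in mutant mESCs, against 17.5, 16.2 and 17.2 CPM in WT mESCs. Its difference was 1.36 ± 0.22 log2 (edgeR adjusted p = 2.86e-07). Of the 12 called members, 4 fell in mESCs only, 3 fell in both states and by more in mESCs, and 3 rose in EpiLCs and fell in mESCs. The other two were Cdkn1c and Plagl1, which fell in both states and by more in EpiLCs.

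Genes of the integrated stress response and of amino acid supply, many of them targets of the transcription factor ATF4, had more negative than positive differences. Of 43 tested members, 11 had a negative and 4 a positive difference, with a median of -0.11 log2. In mutant EpiLCs 19 fell and 1 rose, and in mutant mESCs 11 fell and 3 rose. Chac1, a glutathione-degrading enzyme, stood at 32.4, 39.7 and 35.1 CPM in mutant EpiLCs, against 78.6, 87.2 and 80.1 CPM in WT EpiLCs, and at 23.03, 24.6 and 24.8 CPM in mutant mESCs, against 30.4, 33.5 and 33.02 CPM in WT mESCs. It fell in both states, and by more in EpiLCs, with a difference of -0.79 ± 0.13 log2 (edgeR adjusted p = 6.40e-07). Atf3, a stress-induced transcription factor, stood at 5.81, 4.75 and 4.70 CPM in mutant EpiLCs, against 10.1, 8.17 and 12.3 CPM in WT EpiLCs, and at 14.6, 11.04 and 11.9 CPM in mutant mESCs, against 14.4, 14.6 and 13.1 CPM in WT mESCs. Its difference of -0.82 ± 0.25 log2 (edgeR adjusted p = 0.0197) was no longer called without mutant mESC replicate 1, mutant EpiLC replicate 2 or 3, or WT EpiLC replicate 3. Stc2, a secreted glycoprotein, went the other way, with 10.97, 11.3 and 12.2 CPM in mutant EpiLCs, against 13.04, 9.81 and 10.2 CPM in WT EpiLCs, and 4.0049, 4.89 and 4.57 CPM in mutant mESCs, against 7.98, 8.16 and 6.94 CPM in WT mESCs. It fell in mESCs only, and its difference of 0.84 ± 0.27 log2 (edgeR adjusted p = 0.0285) was not called without mutant mESC replicate 1, mutant EpiLC replicate 3, WT mESC replicate 1 or 2, or WT EpiLC replicate 2 or 3. The positive count of the list was 2 without mutant mESC replicate 1, WT mESC replicate 1 or 2, or WT EpiLC replicate 2.

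ATF4 pairs with a C/EBP factor on a composite element, here searched as TGATGNAA on both strands in the RefSeq promoters of GRCm38.p6, which run from 250 bases before to 50 after each gene start. Of 37 list members with a promoter in that table, 12 (32.4%) hold it, against 1096 of 27025 promoters in all (4.06%). Since many members were listed as ATF4 targets, a larger share than in all promoters was built into the list. Among members with a negative difference 4 of 10 hold it (40%), among those with a positive difference 0 of 4, and among members without a called difference 8 of 23 (34.8%). The element thus did not set members with a negative difference apart from members without a called one. The promoters of Chac1 (chr2:119350992-119351291, plus strand), Atf3 (chr1:191183284-191183583, minus strand) and Trib3 (chr2:152344011-152344310, minus strand), the members with the most negative differences among those that hold it, are given 5′ to 3′ with the matches in capitals. Trib3, a pseudokinase induced by ATF4, was chosen for this after its values were seen. A match is a description of the letters and not a bound site.
Chac1: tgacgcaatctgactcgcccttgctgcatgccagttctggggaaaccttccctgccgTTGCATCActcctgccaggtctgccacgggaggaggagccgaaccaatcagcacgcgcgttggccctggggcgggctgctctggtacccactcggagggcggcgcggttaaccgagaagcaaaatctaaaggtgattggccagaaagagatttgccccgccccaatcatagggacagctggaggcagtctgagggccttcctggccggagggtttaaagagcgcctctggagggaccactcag
Atf3: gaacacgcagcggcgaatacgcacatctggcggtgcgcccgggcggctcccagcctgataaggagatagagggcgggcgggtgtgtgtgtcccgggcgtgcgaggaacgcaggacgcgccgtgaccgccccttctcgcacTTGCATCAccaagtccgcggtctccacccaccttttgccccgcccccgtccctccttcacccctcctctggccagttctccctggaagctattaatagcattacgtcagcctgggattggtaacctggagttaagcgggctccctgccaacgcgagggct
Trib3: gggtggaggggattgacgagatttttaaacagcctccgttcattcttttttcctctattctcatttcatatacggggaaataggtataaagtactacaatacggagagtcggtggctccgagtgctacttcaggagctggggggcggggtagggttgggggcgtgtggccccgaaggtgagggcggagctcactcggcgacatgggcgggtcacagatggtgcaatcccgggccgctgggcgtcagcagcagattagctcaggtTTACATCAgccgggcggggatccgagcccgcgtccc

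**Figure D5:**
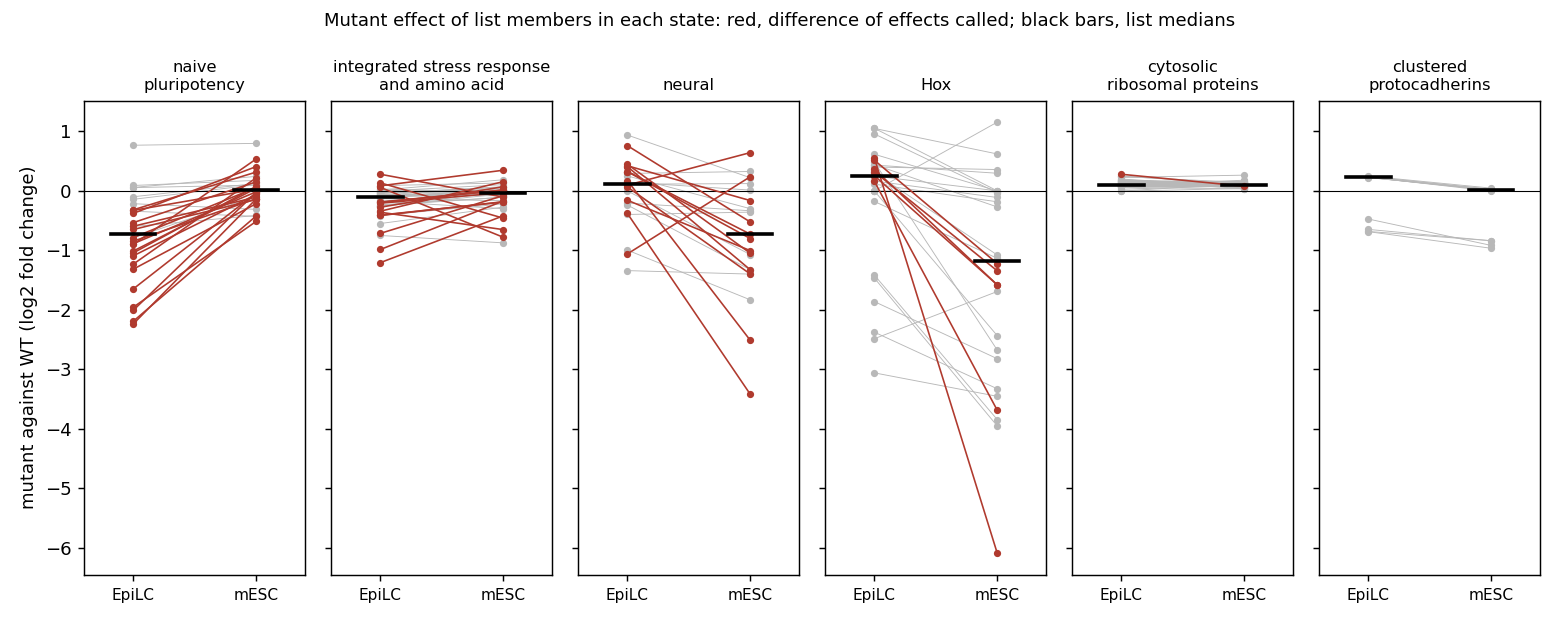
Each line joins the log2 fold change of mutant against WT for 1 list member in EpiLCs (left) and in mESCs (right); red lines are members with a called difference and black bars are list medians. Naive pluripotency members have a median of -0.72 log2 in EpiLCs and 0.01 log2 in mESCs, Hox members one of 0.25 log2 in EpiLCs and -1.18 log2 in mESCs, and ribosomal protein members one of 0.11 log2 in both.

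Few differences or none were called among ribosomal protein and respiratory genes. Of 35 tested cytosolic ribosomal protein genes, 18 rose in EpiLCs and 17 in mESCs, with medians of 0.11 log2 in each, and 1, Rplp2, had a called difference. That count was 4 with upper-quartile scaling, 3 without WT EpiLC replicate 3 and 2 without WT mESC replicate 1, and 1 negative difference was called without WT mESC replicate 3. For 31 tested oxidative phosphorylation genes, 5 rose in EpiLCs and 8 in mESCs, and no difference was called by edgeR, DESeq2 or limma-voom, with 1 positive and 1 negative at an unadjusted p under 0.05. Subunits of PRC2 itself (13 tested) had 3 negative differences (23.1% of members, against 5.05% of all genes tested), all of about -0.30 log2. Suz12, a core subunit, stood at 217, 220.4 and 225 CPM in mutant EpiLCs, against 267, 286 and 264 CPM in WT EpiLCs, and at 307, 297 and 285 CPM in mutant mESCs, against 299, 291 and 302 CPM in WT mESCs, a fall called in EpiLCs only. Eed, another core subunit, rose in mESCs only, with 81.95, 89.3 and 82.2 CPM in mutant EpiLCs, against 92.97, 88.3 and 84.9 CPM in WT EpiLCs, and 197, 187 and 197 CPM in mutant mESCs, against 155, 167 and 173 CPM in WT mESCs; its exons overlap those of E230029C05Rik. Jarid2, an accessory subunit, fell in EpiLCs and rose in mESCs. PRC1 subunits (30 tested) had 1 positive difference, that of Cbx2, which reads the PRC2 mark, and 3 negative ones. Together these are 13.3% of members, near the 9.73% of all genes tested, so the count is no result about this list. The positive count was 2 without WT mESC replicate 3. Cbx2 stood at 65.9, 61.1 and 63.8 CPM in mutant EpiLCs, against 54.96, 55.2 and 57.8 CPM in WT EpiLCs, and at 32.4, 34.3 and 34.2 CPM in mutant mESCs, against 51.5, 45.6 and 48.7 CPM in WT mESCs, with a difference of 0.72 ± 0.11 log2 (edgeR adjusted p = 2.90e-07).

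The DNA methylation machinery was split. Of 20 tested members 5 had a negative and 3 a positive difference, together 40%, against 9.73% of all genes tested. Tet2, which oxidises methylcytosine, stood at 76.4, 72.7 and 87.3 CPM in mutant EpiLCs, against 149.7, 141 and 147 CPM in WT EpiLCs, and at 204, 220.1 and 233 CPM in mutant mESCs, against 215, 243 and 204 CPM in WT mESCs. It fell in EpiLCs only, with a difference of -0.87 ± 0.08 log2 (edgeR adjusted p = 4.06e-15). Its relative Tet3 fell in mESCs only, with 65.3, 67.3 and 71.3 CPM in mutant EpiLCs, against 77.1, 65.6 and 63.7 CPM in WT EpiLCs, and 16.02, 14.1 and 18.4 CPM in mutant mESCs, against 31.4, 34.8 and 32.2 CPM in WT mESCs, and had a difference of 1.01 ± 0.13 log2 (edgeR adjusted p = 3.38e-10). Matrix and integrin genes (30 tested) had 8 negative and 5 positive differences (43.3% of members), with 3 positive without mutant mESC replicate 1. Fn1, which encodes fibronectin, fell in EpiLCs only, while Col4a1 and Col4a2, neighbouring genes for chains of basement membrane collagen, fell in both states and by more in mESCs. Glycolysis and glucose transport genes (24 tested) had 5 positive and 2 negative differences (29.2% of members). Slc16a3, a lactate exporter, rose in EpiLCs and fell in mESCs, with 188, 182 and 168 CPM in mutant EpiLCs, against 142, 149 and 135 CPM in WT EpiLCs, and 14.5, 17.2 and 16.3 CPM in mutant mESCs, against 30.04, 30.01 and 31.9 CPM in WT mESCs. Pdk1, which inhibits entry of pyruvate into mitochondria, moved in the opposite sense, with 241, 249.7 and 253 CPM in mutant EpiLCs, against 314, 327 and 302 CPM in WT EpiLCs, and 146, 135 and 136 CPM in mutant mESCs, against 84.9, 88.97 and 87.998 CPM in WT mESCs. Their differences were 1.27 ± 0.11 log2 for Slc16a3 and -1.01 ± 0.07 log2 for Pdk1 (edgeR adjusted p = 4.46e-19 and 1.12e-25).

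Same-direction effects of unequal size were called for 113 genes. In 45 both falls were called and the fall was larger in EpiLCs on the log scale, but for 27 of these the difference in CPM was larger in mESCs, where the class had a median of 140 CPM in mutant and 163 CPM in WT cells, against 27.7 CPM in mutant and 51.1 CPM in WT EpiLCs. Jam2, a junction adhesion molecule of the naive list, is such a case, with 0.656, 0.974 and 0.459 CPM in mutant EpiLCs, against 3.79, 3.17 and 2.58 CPM in WT EpiLCs, and 192, 186 and 168 CPM in mutant mESCs, against 248, 243 and 238 CPM in WT mESCs. In 55 genes both falls were called and the fall was larger in mESCs. Twist1, a mesenchymal transcription factor, stood at 8.25, 6.94 and 7.57 CPM in mutant EpiLCs, against 14.8, 12.4 and 11.9 CPM in WT EpiLCs, and at 2.11, 0.729 and 0.780 CPM in mutant mESCs, against 5.10, 6.51 and 5.14 CPM in WT mESCs, with a difference of 1.44 ± 0.38 log2 (edgeR adjusted p = 0.00313), and 2.10 log2 without mutant mESC replicate 1. Rises in both states differed for 10 genes that rose more in mESCs, led by Trh, the thyrotropin-releasing hormone gene, with 85.3, 83.4 and 79.01 CPM in mutant EpiLCs, against 71.2, 71.9 and 72.5 CPM in WT EpiLCs, and 397, 391 and 401 CPM in mutant mESCs, against 145, 147 and 142 CPM in WT mESCs. The 3 genes that rose in both states and more in EpiLCs were the receptor kinases Tyro3 and Ptk7 and the transcriptional repressor Etv6. Etv6 lost its call in the majority of the fits that left out 1 library, and Ptk7 without WT mESC replicate 2.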

How the data were processed

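Total RNA of 12 libraries was sequenced. The deposited table holds unnormalized read counts per gene, which the authors made, per the submitters' processing notes, on the mm10 build; those notes name edgeR 3.18.1, featureCounts, Subread, STAR 2.5.3a and FastQC 0.11.2, without the role of each. Whether counting used strand is not given there, so overlapping genes are named as such. The 24 per-sample columns of normalized values were not used. Of 19656 features, 26 that carry dates in place of symbols (0.182 to 0.212% of counts) were dropped before library sizes were summed. GENCODE M21 of GRCm38 held 18587 of the symbols directly and 811 by a synonym, with 232 unmatched.

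Low genes were removed with filterByExpr, and the rest were TMM-scaled and fitted with edgeR 4.0.16 (robust quasi-likelihood) in R 4.3.3, as 4 group means over 12 libraries with 8 residual degrees of freedom and a biological coefficient of variation of 4.57%. CPM use effective library sizes. A group without counts was set to 3 counts over the group for its difference, which allows for counting error in that group only. No library was a copy of another: between replicates the chi-square of counts divided by its degrees of freedom was 1.91 to 3.01. In data simulated from these libraries with 200 of 13746 genes changed, the interaction test recovered 71.6% of 1.5-fold, 83.6% of 2-fold and 97.0% of 4-fold differences, and 4.55% of calls were false. The changed genes averaged at least 2 CPM over the 12 libraries and were changed in mutant EpiLCs only. Counts were drawn with the fitted spread alone. These rates therefore do not cover genes with fewer reads or a larger spread.

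The genes, the 39 lists, the classes and the tests were chosen with earlier results of these data known. Named genes were E130012A19Rik; the 6 largest differences in each direction of the 2 one-state classes, 3 in each direction of the classes called in both states alike and 4 of each opposite class, all with a mean of at least 2 CPM in a group and no predicted or clone name; the 3 largest called members of each list; and 7 state markers. Only some of them are printed, 1 gene of an opposite class is not reported here, and genes named outside this rule (such as Trib3, Pdgfa, Nr0b1, Fn1, Col4a1, Col4a2 and Plagl1) were chosen after their values were seen. Alternatives were RLE and upper-quartile scaling, 2 other filters, DESeq2 1.42.0, limma-voom (limma 3.58.1), a replicate block, a 2-fold minimum, single-state fits and leaving out each library. Exon overlaps came from bedtools 2.31.1. A comparison of promoter features between classes was void, since 10826 of the genes tested (78.0%, under the 80% required) had a promoter sequence.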

Additional observations from a re-analysis of the deposited data

Results flagged for a closer look

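The mutant effect differed between EpiLCs and mESCs for 1351 genes by the interaction test of edgeR at an adjusted p under 0.05. In the 7 genes below the effect was called in both states in opposite directions, and they are 7 of the 8 that the naming rule chose for the size of their differences. For 3 of them mutant mESCs held no count. Their differences are given with 3 counts set over that group, which allows for counting error in that group only. The difference was 3.64 log2 for Hoxa9, 2.80 log2 for Cnr1, a cannabinoid receptor gene, and 2.18 log2 for Fgf5, a growth factor of the formative epiblast. The fall of these genes in mESCs rests on few reads. The 3 WT mESC libraries together held 25 for Hoxa9, 13 for Cnr1 and 7 for Fgf5. Pkdcc, which encodes a secreted kinase, had a difference of 2.91 log2, rising in EpiLCs and falling in mESCs. The other three fell in mutant EpiLCs and rose in mutant mESCs. For Khdc3, known from the maternal complex of oocytes, the difference was -2.55 log2. Ntn1, which encodes the guidance cue netrin, had -1.86 log2, and Bmp4 -1.82 log2. Chosen for opposite directions, these genes are no sign of how common such effects are; 126 of the 1351 genes were of this kind.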

How the results depend on the processing

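The fits with RLE or upper-quartile scaling, other filters, DESeq2 or limma-voom gave 567 to 772 positive and 557 to 699 negative differences. The class of genes that rose in both states and more in EpiLCs held 3 genes, and 1 without a filter on low counts and 1 with DESeq2. Differences of at least 2-fold numbered 239 positive and 100 negative, fewer by construction. Leaving out 1 library gave 549 to 623 positive and 537 to 720 negative differences, 1665 to 2293 calls in EpiLCs and 1948 to 2647 in mESCs. Classes then ranged over 98 to 132 (EpiLCs only, higher), 224 to 311 (EpiLCs only, lower), 174 to 238 (mESCs only, higher), 301 to 367 (mESCs only, lower), 1 to 3 and 32 to 44 (both, larger in EpiLCs, higher and lower), 6 to 11 and 33 to 52 (both, larger in mESCs, higher and lower), and 44 to 56 and 47 to 64 (opposite). The count of 6 came without WT EpiLC replicate 1 or 2, and counts of 33 and 36 without mutant EpiLC replicate 2 and WT EpiLC replicate 2. With upper-quartile scaling the order of the counts turned round, with 772 positive and 557 negative against 650 and 701. No named gene with a called difference changed sign in any of these fits, while the uncalled differences of Otx2 and E130012A19Rik did. The cause of the changes was not tested. For named genes, 143 of 1488 fits without 1 library and 21 of 868 other fits lost a call.

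No pairing of libraries by replicate number was seen: of 18 same-number pairs of libraries, 0 had deviations from the group means that correlated over 0.1 (-0.04 to 0.075). These correlations cannot show whether same-number libraries shared a culture or a day. With the replicate block the fit gave 666 positive and 735 negative differences. Low counts limit the rest: 31 of the 375 genes that fell in mESCs only averaged under 1 CPM in mESCs.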

Other observations

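Over all genes tested 9.73% had a called difference, 4.68% positive and 5.05% negative. Interferon and innate response genes (21 tested) had 4 positive differences and 1 negative one. H2-K1, a class I antigen-presenting molecule, fell in mESCs only, with a difference of 1.04 log2, while Ddx58, a sensor of viral RNA, rose in mESCs only, with a difference of -1.10 log2 (edgeR adjusted p = 2.98e-09 and 2.97e-05). Hypoxia targets (19 tested) had 3 positive and 2 negative differences, cell cycle genes (32) 3 and 5, p53 targets (22) 3 and 3, heat shock and ER chaperone genes (24) 3 and 3, and cholesterol synthesis genes (29) 3 and 1. The negative cell cycle count was 3 without WT EpiLC replicate 2 or mutant mESC replicate 1. The positive cholesterol count was 5 without WT EpiLC replicate 2 and 1 without mutant mESC replicate 2 or 3 or WT mESC replicate 2. Its negative count was 0 or 2 in all fits without 1 library but those without mutant mESC replicate 1 or 2 or WT mESC replicate 1 or 2. With upper-quartile scaling the positive count was 6 for heat shock and ER chaperone genes and 6 for cholesterol synthesis genes. Herpud1, which helps clear misfolded proteins from the endoplasmic reticulum, fell in EpiLCs only, with a difference of -0.60 log2 (edgeR adjusted p = 2.73e-06).

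BMP pathway genes (17 tested) and Notch pathway genes (13 tested) had 1 positive and 1 negative difference each, 11.8% and 15.4% of members. The positive Notch count was 2 without mutant EpiLC replicate 2 or WT mESC replicate 3. Adhesion and mesenchymal transition genes (23 tested) had 2 and 3, lysosome genes (27) 1 and 2, and feeder and fibroblast genes (13) 2 and 1. The shares of BMP pathway, Notch pathway, lysosome and cholesterol synthesis genes (11.8%, 15.4%, 11.1% and 13.8%) lie near the 9.73% of all genes tested. Their counts are no result about these lists. The negative adhesion count was 1 without mutant EpiLC replicate 3, WT EpiLC replicate 1 or mutant mESC replicate 3, and 5 without WT mESC replicate 1. The positive lysosome call was made without WT EpiLC replicate 1, mutant EpiLC replicate 3 or mutant mESC replicate 1, and in no other fit without 1 library. The positive feeder count was 4 without mutant mESC replicate 2. For MYC, MAX and related repressor genes (15 tested) 4 differences were negative, and for NRF2 and oxidative stress genes (21) 3 were. These are 26.7% and 14.3% of members, against 5.05% of all genes tested for negative differences and 9.73% for both directions. The NRF2 share lies near the latter, and its count is no result about that list. In both of these lists no positive difference was called by edgeR, DESeq2 or limma-voom, and 1 and 0 members had one at an unadjusted p under 0.05. In the first list 1 was called without WT EpiLC replicate 3. Hspb1, a small heat shock protein, fell in mutant EpiLCs and rose in mutant mESCs, with a difference of -0.76 log2 (edgeR adjusted p = 7.37e-18).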
